A study of Rattus norvegicus with 2 samples.

Results

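The thyroid axis genes examined here were Trh, Trhr, Dio2, Dio3, Thra, Thrb and Crym, taken as every non-control probe that carried one of these 7 names on 2 rat expression arrays. Each gene had 1 probe, so 7 of the 30367 probes on the array were used. The arrays held Cy3-labelled RNA from tissue labelled as the hypothalamic paraventricular nucleus of male Sprague Dawley offspring aged 12 weeks. Mothers of the dexamethasone group were dosed in the third trimester with dexamethasone at 200 µg/kg, and those of the control group with vehicle. Dexamethasone is a drug that activates the glucocorticoid receptor. Each group had 1 array, and the labels do not say if the RNA came from 1 rat or from several. There was therefore no test of the treatment and no p-value, and differences are sorted by size alone, at 2-fold.

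Thyrotropin-releasing hormone (TRH) is a small peptide made by neurons of the paraventricular nucleus, and it drives thyrotropin release from the pituitary and so thyroid hormone output. The thyroid releases mostly the prohormone thyroxine, which brain cells convert to the active hormone T3 or inactivate. T3 acts through nuclear receptors, and in this nucleus it represses the gene of TRH itself, which closes the feedback loop.

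Of the 7 genes, 6 were well above background on both arrays, and Thrb was so on the dexamethasone array alone. Among these 6, Crym, Dio3 and Dio2 were at least 2-fold higher on the dexamethasone array and 0 were at least 2-fold lower. The background was 14175 measured genes, of which 3.37% reached 2-fold upward, 2.38% downward and 5.76% either way. The median difference of the 6 genes was 0.86 on the log2 scale, against 0.01 over all measured genes, and it was 0.49 with normexp. The genes were chosen with earlier results of these data known, so these counts describe the 2 arrays. Of the 3 differences, that of Crym stayed past 2-fold however the background was handled, and those of Dio2 and Dio3 did not.

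**Figure D1:**
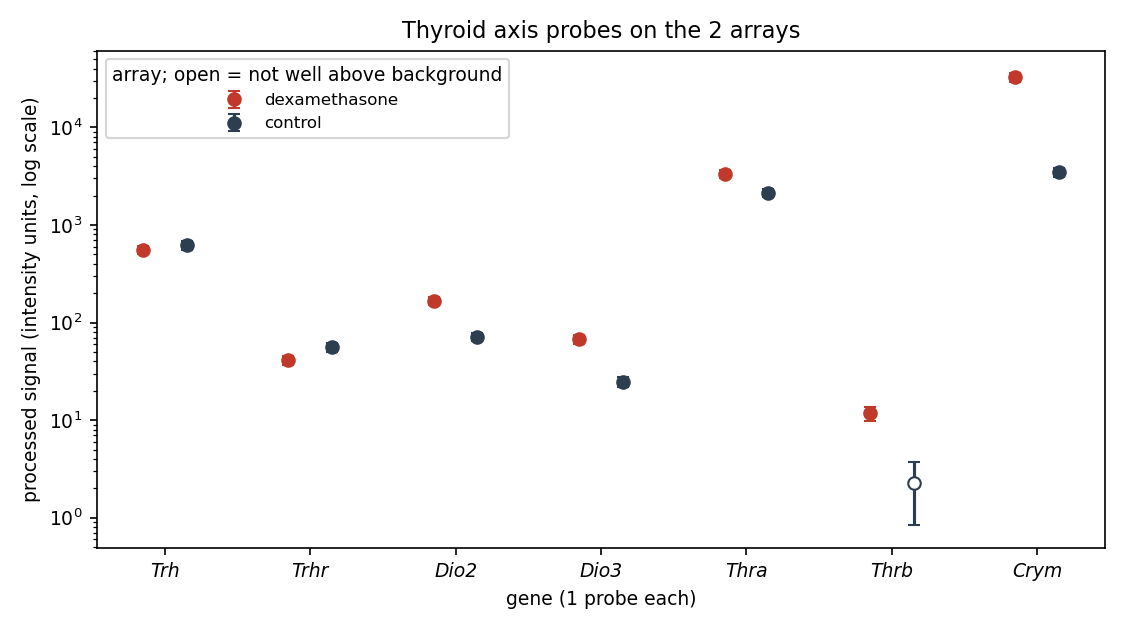
Processed signal (vertical axis, intensity units on a log scale) of the 1 probe of each gene on the dexamethasone array (red, left) and the control array (dark, right). Bars are the scanner software's own error estimate for the spot, and the open point marks Thrb on the control array, not well above background. Crym stood at 32442 against 3450, the widest gap among the 6 genes measured on both arrays.

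Signals below are the scanner's background-subtracted intensity with the error its software estimated for that spot, and log2 differences are dexamethasone minus control after each array was scaled to its 75th percentile. Each probe was spotted once, so no spread between spots of one gene exists. Settings that act on repeated spots, outlier marks, filters or a gene's several probes could therefore not move these differences, beyond a slight shift of scaling. For a sense of spot error, probes spotted repeatedly and of similar signal (within 1 log2 unit) were used, and the median SD of their between-array difference is given beside each gene. None of the 7 spots was saturated or marked as an outlier on either array. Signals of different probes depend on the probe, so the levels of the genes were not set against each other.

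Trh encodes the precursor protein from which several copies of the peptide are cut. Its probe (rn4 chr4:126425344-126425403, minus strand) had a signal of 554 ± 55.4 on the dexamethasone array, against 622 ± 62.2 on the control array. The error ranges that the software gave for these 2 unscaled signals overlapped. For the brighter genes that error was close to a fixed share of the signal, so the overlap says little about these spots. The scaled difference was -0.24, larger in size than the spot SD of 0.047 among 339 repeated probes of similar signal. Trh was thus 1.18-fold lower, within 2-fold under every setting tried (-0.25 to -0.23).

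The promoter of Trh shows the sequences for which the gene is best known as a target of feedback. The stretch below is the 120 bases before the RefSeq start of Trh (GRCr8 chr4:126301763-126301882, minus strand). Capitals mark the 2 elements known in the rodent gene: TGCCGTCA, a cAMP response element, and nearer the start TGACCTCA, called site 4, where thyroid hormone receptor and the cAMP-responsive factor CREB bind.
Trh promoter: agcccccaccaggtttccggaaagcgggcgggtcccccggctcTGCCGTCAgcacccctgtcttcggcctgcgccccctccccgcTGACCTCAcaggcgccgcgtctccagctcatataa

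Counted from this RefSeq start, site 4 began 35 bases before it and the other element 77 bases before it. The stretch ends in TATAA directly at that start, and whether transcription begins there was not tested. Positions counted from another start would differ. Promoter windows were found for 5 of the 7 genes (6 windows of 250 bases, since Thra has 2), and each motif was searched on both strands. TGACCTCA was in 2.31% of 33469 promoter windows of all genes and, among the 6, in that of Trh alone. TGCCGTCA was in 0.224% of all windows and likewise in that of Trh alone. The thyroid receptor half-site AGGTCA (14.1% of all windows) was found once, inside site 4 on the other strand. The glucocorticoid receptor half-site AGAACA (17.5% of all windows) was found once, in Trh on the strand opposite the gene, 185 to 180 bases before the start. The palindromic cAMP response element TGACGTCA (1.59% of all windows) was in none of the 6. A match of letters is not a measurement of binding.

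Trhr encodes the TRH receptor that the pituitary uses and that brain neurons also carry. Its probe (rn4 chr7:80095310-80095369, plus strand) had a signal of 41.3 ± 4.48 on the dexamethasone array, against 55.8 ± 5.78 on the control array. The dexamethasone value was the lower of the 2, and both lay in the dim part of the array, near the 36.4th and 39.7th percentiles of all probes. The scaled difference of -0.51 (1.42-fold lower) came with a spot SD of 0.13 at this signal. It was -0.25 with normexp background correction and -0.26 with no background correction.

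Dio2 encodes the type 2 deiodinase, which makes T3 from thyroxine and which in hypothalamus is found mainly in tanycytes, the glia lining the third ventricle, and in astrocytes. Its probe (rn4 chr6:114308225-114308284, minus strand) is shown because it ends in TGA (capitals). Deiodinases read the codon UGA as selenocysteine in their active site, and a further UGA stands near the end of the Dio2 coding sequence.
Dio2 probe: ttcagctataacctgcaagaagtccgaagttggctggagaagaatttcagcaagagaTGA

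The Dio2 signal was 167 ± 16.7 on the dexamethasone array, against 71.3 ± 7.27 on the control array. The dexamethasone value was higher by far more than the spot error. The scaled difference was 1.15 (2.22-fold higher), with a spot SD of 0.089 at this signal. Of 2244 probes with a mean signal within 0.5 log2 units of that of Dio2, 3.07% were at least 2-fold higher. With normexp or no background correction the difference was 0.72 in either case, below 2-fold.

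Dio3 encodes the type 3 deiodinase, which inactivates thyroxine and T3, in brain mainly in neurons, and so does the opposite of Dio2. Its probe lies on an unplaced part of chromosome 6 in rn4 (1589962 to 1590021, plus strand). The Dio3 signal was 67.6 ± 7.0 on the dexamethasone array, against 24.9 ± 2.94 on the control array. The dexamethasone array was again the higher, although both signals were dim. The scaled difference was 1.37 (2.58-fold higher), with a spot SD of 0.15 at this signal, and 3.82% of 2070 probes of similar signal were at least 2-fold higher. It fell below 2-fold with normexp (0.42) and with no background correction (0.48). The activating and the inactivating enzyme thus differed in the same direction between these arrays.

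Thra and Thrb encode the nuclear receptors of T3, alpha and beta. Their probes are shown because they lie on matching parts of the related genes. The probes align over 38 bases, of which 25 are identical (65.8%, capitals), and neither shared a run of 16 bases or more with another probe on the array.
Thra probe: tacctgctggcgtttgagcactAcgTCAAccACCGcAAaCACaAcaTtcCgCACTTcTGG
Thrb probe: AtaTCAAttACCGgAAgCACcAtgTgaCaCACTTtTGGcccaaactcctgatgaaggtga

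Thra is the receptor form that predominates in most of the brain. Its probe (rn4 chr10:87537328-87537387, plus strand) had a signal of 3334 ± 333 on the dexamethasone array, against 2129 ± 213 on the control array. The dexamethasone value was higher, by 0.57 on the scaled log2 scale (1.49-fold), beside a spot SD of 0.034 at this signal. Over all settings the difference ranged from 0.54 to 0.59, so it was within 2-fold throughout. The file lists 2 RefSeq transcripts for this probe, which are both transcripts of Thra in RefSeq. The probe therefore cannot separate the T3-binding form alpha-1 from alpha-2, which does not bind T3. Nr1d1, a clock gene that overlaps the end of Thra on the opposite strand, was at -0.02.

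Thrb is the receptor tied to feedback on the TRH gene. Its probe (rn4 chr15:9282955-9283014, minus strand) had a signal of 11.7 ± 2.02 on the dexamethasone array, well above background, against 2.28 ± 1.44 on the control array, not well above background. The control value has no firm size, so no fold difference is given. Set against the lowest signal well above background on the control array (5.86), the Thrb dexamethasone signal was 1.89-fold higher after scaling. That figure allows neither for spot error nor for how background is handled, so it is not a firm lower limit. With normexp, which raises dim signals on both arrays, the same probe was at 0.11 and with no background correction at 0.14. Before background subtraction the mean pixel signal was 71.9 on the dexamethasone array, over a local background of 61.5, and 62 on the control array, over a local background of 63.

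Crym encodes mu-crystallin, a cytosolic protein that binds T3 in the presence of NADPH and holds it inside the cell. It is also an enzyme of amino acid metabolism, and in rodent brain it is known from neurons of cortex, hippocampus and striatum as well as from hypothalamus. The file gives no rn4 position for its probe. The last 30 of its 60 bases are shown because they hold AATAAA (capitals), the signal for adding the poly(A) tail, followed at the end by 6 A. AATAAA was in 8.39% of all probes on the array.
Crym probe, end: tctgaAATAAAtcatttccagttcaaaaaa

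The Crym signal was 32442 ± 3244 on the dexamethasone array, against 3450 ± 345 on the control array. Both values were bright, near the 96.8th and the 84th percentile of their arrays, and lay far apart. The scaled difference was 3.16 (8.92-fold higher), beside a spot SD of 0.030 among 217 repeated probes of similar signal. Of 1250 probes with a signal within 0.5 log2 units, 1.6% were at least 2-fold higher. Ordered by difference, Crym stood at position 41 from the top of 14175 measured genes. The difference was 3.09 to 3.17 over all settings, so it stayed past 2-fold under each of them. Only scaling, background handling and the deposited value table could move it, since Crym had 1 probe spotted once.

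**Figure D2:**
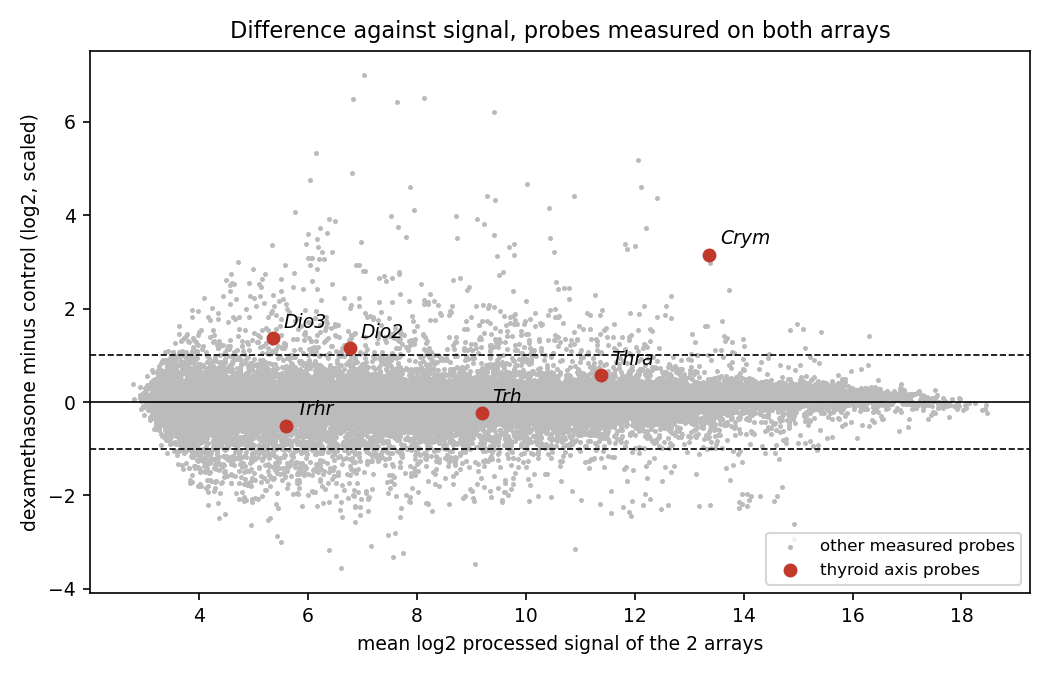
Difference between the arrays (vertical axis, dexamethasone minus control, log2 after scaling) against the mean log2 signal (horizontal axis) for all probes measured on both arrays (grey) and the 6 thyroid axis probes so measured (red). Dashed lines mark 2-fold; Crym lies at 3.16 among bright probes, while Dio3 at 1.37 and Dio2 at 1.15 lie just past 2-fold at lower signal.

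The tissue label was checked against marker genes. Of 6 markers of the paraventricular nucleus 5 were measured on both arrays. Avp (vasopressin, -1.91) and Oxt (oxytocin, -1.38) were at least 2-fold lower on the dexamethasone array, and Crh (corticotropin-releasing hormone, 1.39) at least 2-fold higher. Sim1, which specifies the nucleus, was dim on both arrays, at 12 and 14.1, and Otp was well above background on the dexamethasone array alone. Pou3f2 was at 0.24. The summed signal of the 6 listed markers was 2575 on the dexamethasone array and 5455 on the control array. Avp alone gave 970 and 3463.5 of these sums. Markers of other regions differed too, those of forebrain in the direction of Crym and those of thalamus in the opposite one. Of 9 measured markers of cortex, hippocampus and striatum, 8 were at least 2-fold higher on the dexamethasone array (median 4.38), among them Neurod2 (4.66), Icam5 (4.60) and Neurod6 (4.41). Slc17a7, a glutamate transporter gene, was at 1.95 (0.95 with normexp). The summed signal of the 10 listed markers was 70584 on the dexamethasone array and 5688 on the control array, and Tbr1 was not well above background on the control array. Of 7 thalamic markers, 3 (Gbx2, Prkcd and Slitrk6) were at least 2-fold lower and the others were below 0 too (median -0.91), with a summed signal of 68784 on the dexamethasone array and 125949 on the control array. Both measured blood genes, Hbb and Alas2, were at least 2-fold higher (median 1.48), while 5 neuronal and 5 choroid plexus markers held no 2-fold difference (medians 0.10 and 0.27), nor did 6 measured markers of anterior pituitary (median -0.05). The part of these tissues in the difference of Crym, or of any other gene here, was not tested, and more cells of a type cannot be told apart from more RNA per cell. With 1 array a group, any difference in dissection cannot be told apart from the treatment.

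Glia that carry Dio2 gave these values. Of 7 astrocyte markers, 6 were above 0 and 0 reached 2-fold in either direction (median 0.25). The brightest, Slc1a3, a glutamate transporter gene, and S100b were at 0.45 and 0.16, and the largest difference was 0.75, of Slc1a2. The probes of Gfap, the astrocyte filament gene, disagreed over 2-fold, the brighter at 0.73 and the other at 1.14. Of 4 measured tanycyte markers, Lhx2 was at least 2-fold higher (1.06), Vim was at 0.51, Nes at 0.48 and Rax, the defining transcription factor, at -0.84 (-0.36 with normexp). Lhx2 is also a gene of cortex and hippocampus. Gpr50, a tanycyte receptor, was not well above background on either array. Summed over all listed genes with a probe, the unscaled signal of astrocyte markers was 166242 on the dexamethasone array and 131172 on the control array. That of tanycyte markers was 6386 on the dexamethasone array and 3470 on the control array. Lhx2 alone gave 3912 and 1782 of these tanycyte sums, while Rax was at 27.6 and 47.0. The part of these glia in the difference of Dio2 was not tested.

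The rest of the pathway was described through 7 lists of 70 genes. Of 68 measured, 8 were at least 2-fold higher on the dexamethasone array and 0 lower, with a median difference of 0.02, against 3.37% higher and 2.38% lower among all measured genes. The 8 were spread over 4 of the lists.

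Among 8 genes that make or break down TRH, Trhde was at least 2-fold higher. Trhde encodes the membrane peptidase that destroys TRH outside the cell, and its signal was 327 on the dexamethasone array, against 111 on the control array (2.80-fold, 1.49; 1.06 with normexp). The convertases that cut the precursor lay near 0, Pcsk1 at 0.07 and Pcsk2 at -0.12. Cpe, which trims the cut ends, was at 0.15 and Pam, which amidates the peptide, at -0.22. Qpct, which forms the pyroglutamate at the start of TRH, was at -0.34.

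Transport of thyroid hormone into brain cells showed no 2-fold difference in 8 genes (median 0.05). Slc16a10, a transporter of thyroid hormone and aromatic amino acids, was dim and at 0.33 (0.01 with normexp). Slco1c1, the thyroxine transporter of the blood-brain barrier and of astrocytes, was at 0.09. Ttr, the thyroxine carrier made by choroid plexus, was at -0.07 (0.08 with quantile normalization).

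Partners and coregulators of the receptors showed no 2-fold difference in 12 genes (median -0.09). Rxrg and Rxrb, which pair with the T3 receptors, were at -0.73 and -0.31. The corepressor Ncor1 was at 0.13 and the coactivator Ncoa1 at 0.27. The selenoprotein synthesis list held factors on which the deiodinases depend and also selenoproteins themselves (Selenop, Gpx1, Gpx4 and Txnrd1). It showed no 2-fold difference in 8 measured genes (median 0.0027). Secisbp2, which lets ribosomes read UGA as selenocysteine, was at -0.45, and Sepsecs, a synthase for selenocysteine, at -0.16.

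Among genes that T3 raises in brain or liver, 1 of 10 measured was at least 2-fold higher (list median 0.13). This was Nrgn, the neurogranin gene of forebrain neurons, with a signal of 17658 on the dexamethasone array, against 1262 on the control array (13.3-fold, 3.73). Nrgn is also a gene of cortex and hippocampus, whose markers had a median of 4.38. Hr, a corepressor gene that T3 induces directly, was at -0.24, and Klf9 was at 0.35. Dio1, the deiodinase of liver and kidney, was dim and at 0.64 (0.08 with normexp). Nefm was at 0.26 and Rasd2 at -0.11. The probes of Mbp, a myelin gene, disagreed, the brighter at -0.03 and the other at -0.69.

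Of 14 genes that bring signals to TRH neurons, 4 were at least 2-fold higher (list median 0.13). Adra1d, an adrenergic receptor, was at 2.43, with a spot SD of 0.047, while Adra1b, another of that family, was at -0.82. Cartpt and Npy, peptides with opposite effects on TRH neurons, were at 1.91 and 1.85, with spot SDs of 0.037 and 0.036. Mc4r, the melanocortin receptor through which leptin acts on TRH, was at 1.20 (0.40 with normexp). Npy1r, a receptor for Npy, was at -0.61. Lepr, the leptin receptor, was at -0.74 on a dim probe (-0.31 with normexp), and Pomc and Agrp, the melanocortin precursor and the peptide that opposes it, were at 0.24 and -0.07. Among 8 genes of the pituitary and thyroid, Pax8 (1.16) and Duox2 (1.03) were at least 2-fold higher, both dim, and were at 0.28 and 0.42 with normexp. Tshb and Cga, which encode the thyrotropin subunits, were well above background on both arrays, at -0.21 and -0.48. Their signals were 499 and 1702 on the dexamethasone array, against 546 and 2245 on the control array. Of 8 anterior pituitary markers, 6 were measured on both arrays, while neither array detected Gh1 or Prl well above background.

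**Figure D3:**
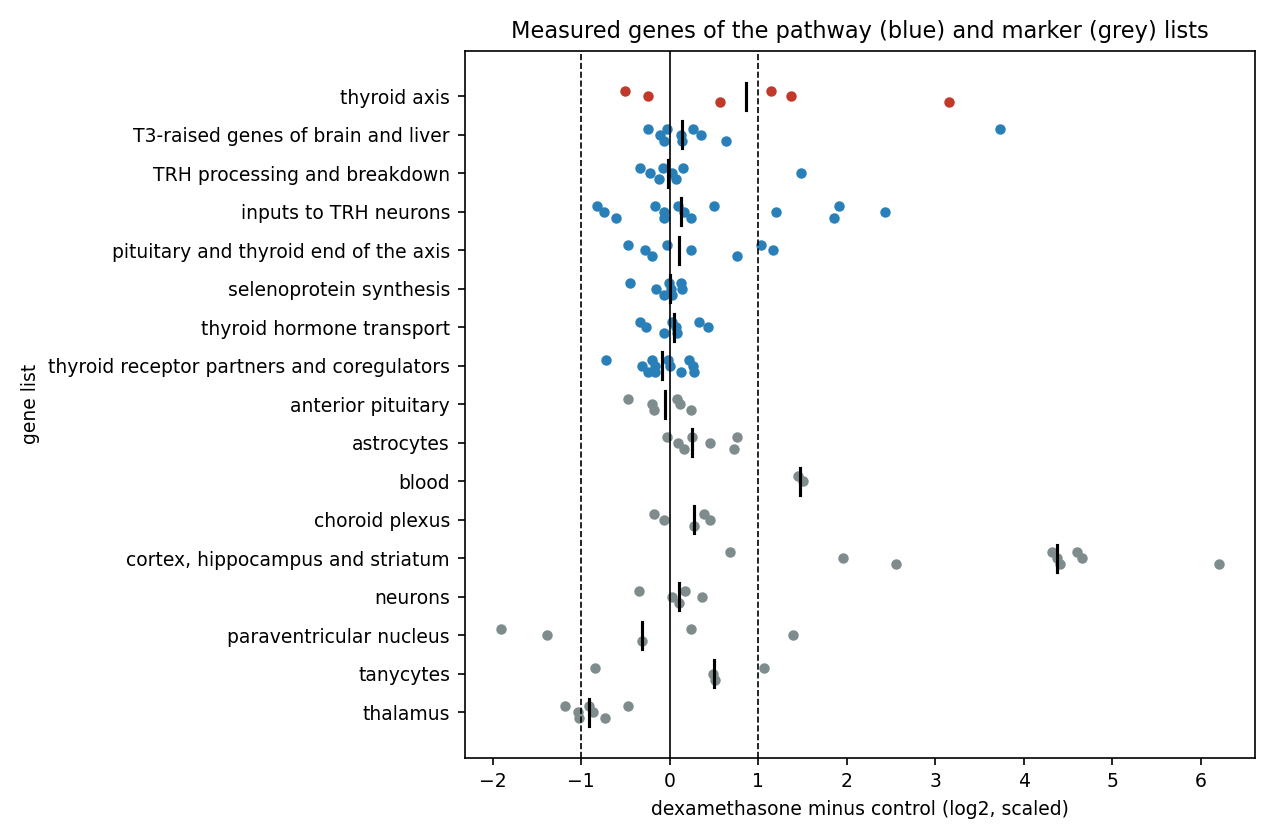
Difference between the arrays (horizontal axis, dexamethasone minus control, log2 after scaling) of every measured gene of the thyroid axis (red), the 7 pathway lists (blue) and the 9 marker lists (grey), with each list's median as a black bar and dashed lines at 2-fold. The pathway medians lie between -0.09 and 0.13, while the cortex, hippocampus and striatum markers have a median of 4.38.

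**Figure D4:**
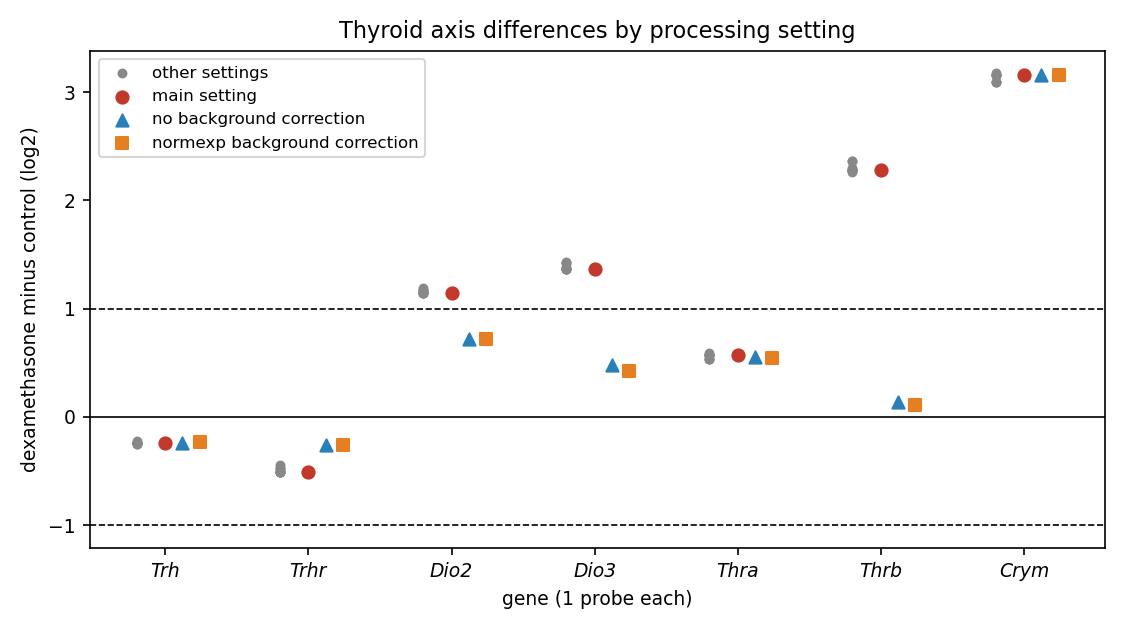
Difference between the arrays (vertical axis, dexamethasone minus control, log2) of each gene's probe under the main setting (red), with no background correction (blue), with normexp correction (orange) and under the other settings (grey); dashed lines mark 2-fold. Background handling moves Dio2 to 0.72, Dio3 to 0.42 or 0.48 and Thrb to 0.11 or 0.14, and leaves Crym at 3.16; the Thrb control spot was not well above background, so its points have no firm size.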

How the data were processed

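Per the labels' protocols, total RNA came from a TRIzol extraction with column clean-up, and a low-input kit added the Cy3 label. The deposited scanner files hold linear spot intensity; per the file headers they were made with Feature Extraction 10.7.1.1 (9.5.1.1 in the submitters' processing notes), with background subtraction and spatial detrending, on rn4 probe positions. The marks for well above background, saturation and outliers are other columns of the deposited files. The authors also deposited a table of processed intensity. Its distribution is the same in both columns, and its normalization method is unknown here. Its counts of genes at least 2-fold apart equalled those under quantile normalization, 493 higher and 333 lower.

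Log2 processed intensity was averaged over a probe's spots without outlier marks (249 spots left out on the dexamethasone array, 267 on the control array) and the 75th percentile of each array was subtracted (signal 1480 on the dexamethasone array and 1404 on the control array). On the dexamethasone array 23745 probes (78.2%) were well above background, on the control array 24139 (79.5%). A probe was measured where most of its spots were well above background on each array. A gene took its brightest measured probe. Probes with a GRCr8 RefSeq symbol, matched by accession (17998), current symbol (2662) or older symbol (559), formed the gene background; 9148 kept the file's name and were left out of it. A bound sets the higher array against the lowest signal well above background on the other.

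Named genes were the members, the pathway list genes at least 2-fold apart or among the 2 with the largest difference of their list, and the marker genes at least 2-fold apart or among the 2 brightest of their list; further list genes, and the Trhr2 values in the closing section, were chosen after their values were seen. A few genes that this rule names are not reported here. No gene was named for a pattern like a member's, since 2 arrays give 1 difference per gene. Members and lists were chosen with earlier results of these data known. Alternatives (11) covered scaling, background correction (normexp with limma 3.58.1, offset 50), the deposited value table, spots and filters. The scaling and the 2-fold rule were run on simulated data with planted changes past 2-fold and equal, small noise at every signal. That check covers the calculation only, not dim spots or background handling. With 1 array in each group, the spread between animals could not be estimated, so no precision of a treatment difference is given.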

Additional observations from a re-analysis of the deposited data

How the results depend on the processing

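No paired analysis was possible because each group had 1 array. The count of 3 thyroid axis genes at least 2-fold higher was 1 with normexp and 1 with no background correction, where Crym alone was left, 2 with a minimum mean log2 signal of 6, which leaves out Dio3 and Trhr, and 4 with no filter on dim probes, which counts Thrb although its control spot was not well above background; under the other 7 alternatives it was 3. The count at least 2-fold lower was 0 under all 11. Alternatives on repeated spots, outlier spots and the mean over a gene's probes could hardly change either count, since each gene had 1 probe spotted once. The deposited value table and quantile normalization gave nearly the same differences (Dio2 1.18 and Dio3 1.42 in both), so they are not separate checks. Of the pathway lists, 8 genes were at least 2-fold higher, and 5 with normexp, with no background correction, or with the minimum mean log2 signal of 6. Over all measured genes, 478 reached 2-fold upward and 338 downward, and with normexp 283 upward and 130 downward (68.5% upward, against 58.6%). Among 49 named genes with a value, 28 were at least 2-fold apart, of which 7 fell below 2-fold under at least 1 alternative, all 7 with normexp and 0 under another scaling or in the value table and 0 changed sign. Of the named genes under 2-fold, Stmn2 (0.02) and Ttr (-0.07) changed sign under some alternatives, among them quantile normalization (-0.07 and 0.08). Normexp adds an offset of 50 to every spot, and no correction leaves the background in, so both shrink differences between dim spots. Signal over background limits Thrb, Dio3 and Trhr: the median SD over repeated spots was 0.21 (log2) for 109 probes with a mean log2 signal under 6 and 0.039 for 1205 brighter probes.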

Other observations

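Trhr2, which encodes the other TRH receptor of rodents and is known from the thalamus among other brain regions, has 2 probes on the array and is outside the member rule. Its brighter probe had a signal of 695 on the dexamethasone array, against 1589 on the control array, a difference of -1.27 (2.41-fold lower), which was -1.23 with normexp. Its other probe was dim and close to equality, with a signal of 23.9 on the dexamethasone array and 25.5 on the control array (-0.17). The files list the same RefSeq and Ensembl transcripts for both probes, so the probes disagree on the gene's difference, and why was not tested. The 7 thalamic markers were below 0 in the same comparison (median -0.91), and their part in the Trhr2 value was not tested.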
